A study of Mus musculus with 18 samples.

Results

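The transcripts of 9 mouse genes were followed that are used as readouts of T-cell receptor (TCR) signalling in thymocytes, namely Cd69, Cd5, Nr4a1, Nr4a3, Egr1, Egr2, Egr3, Id3 and Itm2a. They were found in the deposited count files by the Entrez Gene ID of each symbol. All 9 were present among the 27179 genes of the files, and all 9 passed the filter on low counts that left 12798 genes for testing. Sorted CD69+ thymocytes of 9 mice (3 WT, 3 Hoil and 3 Sharpin) were divided by surface MHC I, and both fractions of every mouse, MHC I low and MHC I high, were sequenced, giving 18 libraries. Hoil mice (HoilΔCd4) carry a floxed Rbck1 gene, which encodes HOIL-1, and a Cd4Cre transgene that deletes it in the T lineage from the CD4+ CD8+ double-positive (DP) stage. Sharpin mice carry the cpdm mutation and lack SHARPIN in every cell type, so that the thymic environment and the animal, which develops an inflammatory skin disease, are mutant too. The study reports using these mice before that disease became extensive. The cpdm strain also came from another C57BL substrain and had been bred to C57BL/6 for only 2 backcrosses. HOIL-1 and SHARPIN are subunits of the linear ubiquitin chain assembly complex (LUBAC). The ages of the sequenced mice are not stated in the sources used here, although the study gives an age range for mice of these genotypes in its flow cytometry. The labels name no treatment for any group.

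When the TCR on a thymocyte binds self peptide presented by MHC, phospholipase C activity drives the Ras-ERK and the calcium-NFAT pathways. ERK acts on the ternary complex factors and SRF at the Egr genes, the EGR proteins induce Id3, and calcium together with MEF2 controls the NR4A nuclear receptors. CD69 and CD5 rise at the cell surface of signalled thymocytes. CD69 and the early transcription factors report recent signals, while CD5 is commonly read as a record of signal strength. Positively selected thymocytes pass through a CD69+ stage with little MHC I on the surface before they become CD69+ MHC I high, which makes MHC I high the later of the pair.

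In GRCm38 coordinates the members are protein-coding genes spread over the genome. The surface molecules are Cd69 (chr6:129267324-129275375), Cd5 (chr19:10718107-10739026) and Itm2a (chrX:107397195-107403360). The nuclear receptors are Nr4a1 (chr15:101253902-101274795) and Nr4a3 (chr4:48045078-48086447). The zinc-finger factors are Egr1 (chr18:34861207-34864956), Egr2 (chr10:67534469-67542188) and Egr3 (chr14:70077317-70082613), and Id3 (chr4:136143822-136145392) encodes an inhibitor of E proteins. No gene counted in the files overlaps a member in the RefSeq annotation.

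The files held between 10577966 and 16266128 counts per sample. Rbck1 was measured at 217 to 268 CPM (counts per 1000000, on a scaled library size) in the 12 WT and Sharpin libraries and at 0.271 to 8.94 CPM in the 6 Hoil libraries. Sharpin transcripts were present at 66.4 to 77.9 CPM in the Sharpin libraries against 85.9 to 97.3 CPM in WT, so transcript level checks the cpdm label only in part. H2-K1, an MHC I gene, rose from 212 to 222 CPM in WT MHC I low to 1990 to 2030 CPM in MHC I high, the direction of the sort. The summed level of 5 markers of NK and innate-like cells was at most 3.72 CPM in MHC I low and 52.8 CPM in MHC I high. Nearly all of the MHC I high sum was Nkg7 (mean 40.2 CPM in WT). Zbtb16, Klrb1c and Klrk1 reached at most 3.07, 0.445 and 0.32 CPM in any library, and Ncr1 was not detected. Markers of B cells, of myeloid and dendritic cells and of thymic epithelium summed to at most 5.94, 8.92 and 11.9 CPM in any library and erythroid markers to at most 0.314 CPM, against 3890 to 5070 CPM for 7 T-cell genes. Xist, the transcript of the inactive X chromosome, was at 3200 to 4290 CPM in the 6 WT libraries and at 3640 to 4470 CPM in Hoil mouse 3 and Sharpin mouse 2. It was at 0.606 to 64.6 CPM in the 8 libraries of the other Hoil and Sharpin mice, so the sexes are unequally divided among the genotypes.

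Of the 9 members, 6 have a promoter in the RefSeq table for GRCm38.p6, and Cd69, Egr1 and Egr3 have none there. The 250 bases upstream of the start are shown for the 4 of these genes whose level differed between Sharpin and WT cells in the MHC I low fraction. Capitals mark TGACG, the core of the CREB and ATF site, on either strand (CGTCA on the printed strand), and, in Egr2, the CArG box that SRF binds. Each sequence is written 5′ to 3′ on the strand of its gene: Nr4a1 at chr15:101266596-101266845 (+), Nr4a3 at chr4:48045055-48045304 (+), Egr2 at chr10:67537619-67537868 (+) and Itm2a at chrX:107403361-107403610 (-).
Nr4a1: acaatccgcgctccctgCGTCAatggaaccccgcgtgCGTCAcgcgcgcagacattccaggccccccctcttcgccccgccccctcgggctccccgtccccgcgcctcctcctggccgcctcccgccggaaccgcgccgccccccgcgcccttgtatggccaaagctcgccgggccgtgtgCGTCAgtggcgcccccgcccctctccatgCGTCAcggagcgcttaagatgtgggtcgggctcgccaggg
Nr4a3: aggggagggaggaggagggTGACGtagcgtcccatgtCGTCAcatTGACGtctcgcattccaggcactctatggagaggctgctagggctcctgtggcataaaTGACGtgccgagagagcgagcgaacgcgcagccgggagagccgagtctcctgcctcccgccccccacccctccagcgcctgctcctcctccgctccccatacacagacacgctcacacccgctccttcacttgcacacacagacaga
Egr2: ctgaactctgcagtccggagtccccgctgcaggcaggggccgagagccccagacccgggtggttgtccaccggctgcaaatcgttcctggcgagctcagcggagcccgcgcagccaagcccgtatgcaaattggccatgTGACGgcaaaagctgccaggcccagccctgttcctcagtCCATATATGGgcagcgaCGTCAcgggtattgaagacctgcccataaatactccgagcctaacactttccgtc
Itm2a: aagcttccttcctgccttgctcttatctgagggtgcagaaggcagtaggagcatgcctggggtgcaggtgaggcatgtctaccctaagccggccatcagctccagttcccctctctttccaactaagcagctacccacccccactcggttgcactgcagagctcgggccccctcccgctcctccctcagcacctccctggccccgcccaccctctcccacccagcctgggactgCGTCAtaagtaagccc
Nr4a1 and Nr4a3 each held 4 copies of TGACG, a number reached or passed by 0.137% of the 32851 promoters of the table. Egr2 held 2 copies and Itm2a held 1, while 3.9% of all promoters held 2 or more and 17.8% held 1 or more. The CArG box stood in 1.47% of all promoters and in Egr2 alone among the 6 members. Egr2 has 5 annotated starts, and the window shown is the first of 3 closely spaced ones that held both motifs. For Egr2 and Nr4a1 the gene begins at a start farther upstream, so the window lies inside the annotated gene, and for Nr4a3 all but the first bases of the window do. Id3 held 1 TGACG and Cd5 none. These matches describe letters in a window and were not tested for binding.

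Levels between genes were compared as CPM per kilobase of counted exon. In WT MHC I low cells Itm2a, a transmembrane protein induced during positive selection, was the highest at 1200 ± 61.7 CPM per kilobase (SD, n = 3). Cd5, an inhibitory scavenger receptor family member, followed at 559 ± 25.7 and Nr4a1, the orphan nuclear receptor Nur77, at 401 ± 31.5. The early activation antigen Cd69 stood at 249 ± 14.8, Id3 at 218 ± 19.1 and Egr1 at 175 ± 11.5. Nr4a3 at 84.4 ± 7.9, Egr2 at 65.0 ± 1.83 and Egr3 at 20.5 ± 0.865 closed the order. No 2 neighbours in this order overlapped between mice. In WT MHC I high cells Cd5 came first at 348 ± 31.1 and Itm2a second at 322 ± 64.9 CPM per kilobase, and their mice overlapped, as did those of Egr1 (91.6 ± 10.8) and Cd69 (76.1 ± 8.4). Cd69 moved from the fourth place to the sixth. The plot of levels by library shows the values of all members on the CPM scale.

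**Figure D1:**
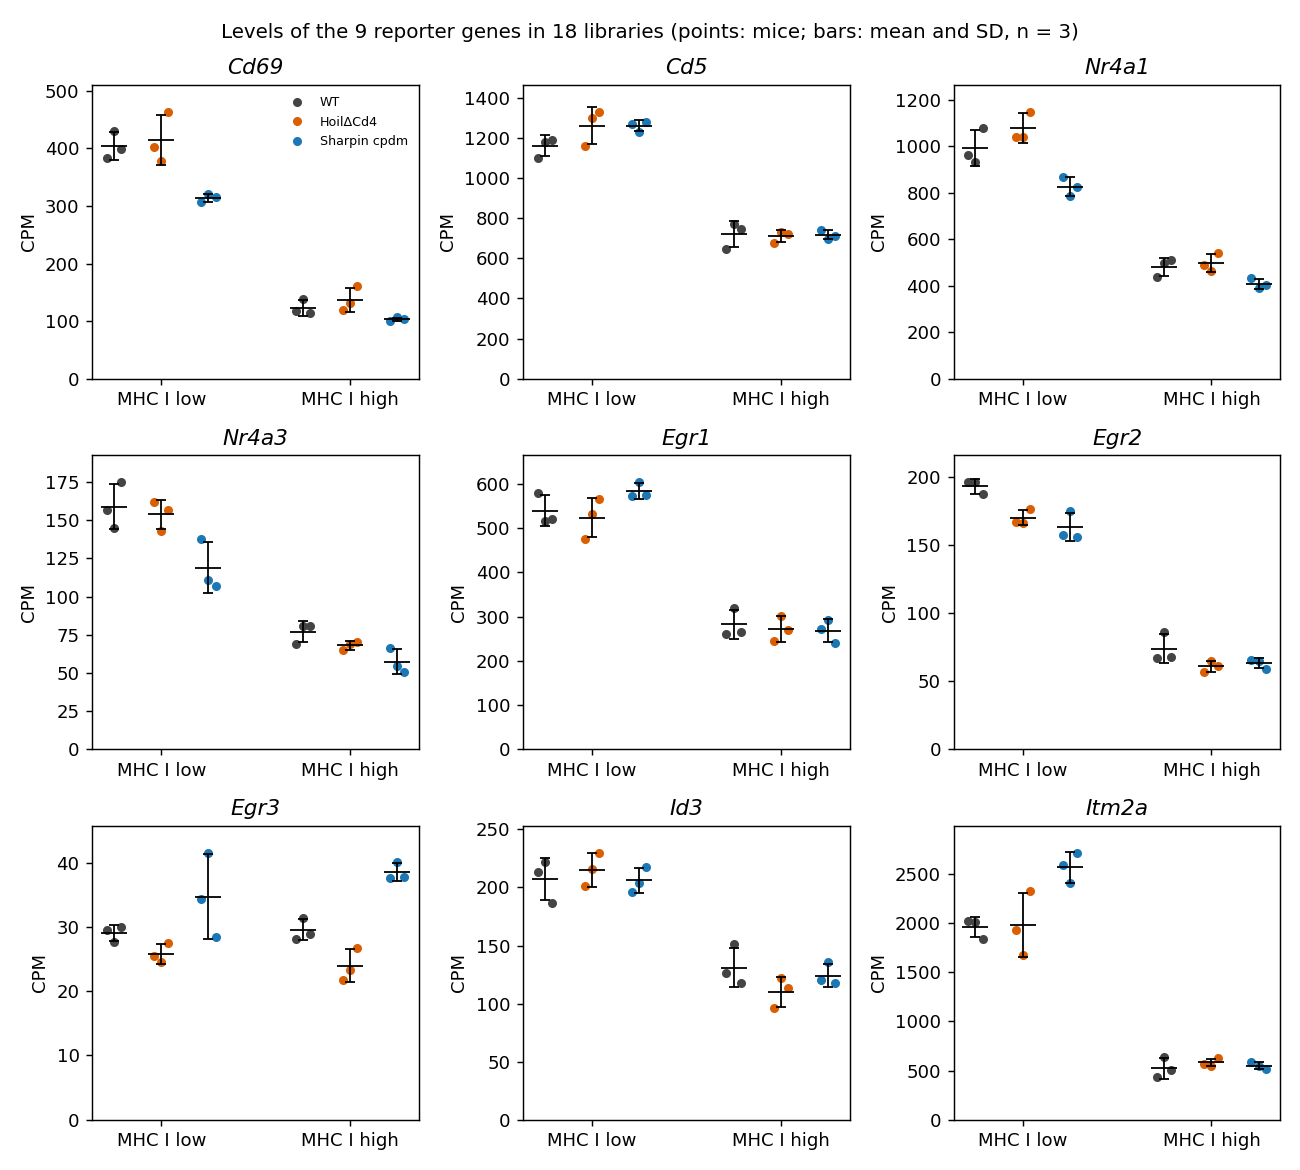
Levels of the 9 genes in CPM (vertical axes, from 0) in the MHC I low and MHC I high fractions. Points are the 3 mice of WT (grey), HoilΔCd4 (orange) and Sharpin cpdm (blue), and bars are the mean and SD. For 8 genes all MHC I high points lie below all MHC I low points of the same genotype, whereas Egr3 lies between 21.8 and 41.6 CPM in both fractions.

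The first comparison asks how the TCR readouts differ between the earlier and the later CD69+ stage of the same mice. In WT mice 8 of the 9 genes were lower in MHC I high than in MHC I low cells, where 54.4% of all genes tested were called and 26.8% were called lower. A gene was called at an adjusted p under 0.05 by limma, with p-values adjusted over all 12798 genes. The same 8 genes were lower in Hoil mice, where 45.3% of genes were called and 21.7% called lower. They were also lower in Sharpin mice, where 54.6% were called and 27.4% called lower. The median log2 fold change of the 9 genes (MHC I high minus MHC I low) was -1.03 in WT, -1.12 in Hoil and -1.07 in Sharpin, beside a median of 0.0 over all genes tested. Each of the 8 genes was lower in all 3 mice of every genotype, and its fractions did not overlap. How many of all genes tested had fractions without overlap was not counted. In these bulk samples fewer cells of one type and less RNA per cell cannot be told apart.

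Among the surface molecules, Itm2a changed most. It was at 2020, 2010 and 1840 CPM in the WT MHC I low libraries and at 432, 640 and 502 CPM in MHC I high, a 3.87-fold fall (log2 fold change -1.95, SE 0.091, limma adjusted p = 4.97e-11). Cd69, whose protein was itself a gate of the sort in both fractions, was at 383, 430 and 399 CPM and then at 117, 139 and 114 CPM. That was a 3.38-fold fall (log2 fold change -1.76, SE 0.062, limma adjusted p = 1.85e-18) among cells all sorted as CD69+. Cd5 changed least of the 8 in WT, from 1100, 1180 and 1190 CPM to 646, 768 and 743 CPM, a 1.6-fold fall (log2 fold change -0.68, SE 0.046, limma adjusted p = 7.56e-14). Id3 was close to it in WT (-0.72, 95% interval -0.86 to -0.58), and in Sharpin Id3 fell less (-0.69) than Cd5 (-0.82). The interval of the Cd5 change (95%, -0.77 to -0.58) lay above those of Cd69 (-1.88 to -1.63) and Itm2a (-2.15 to -1.76).

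The nuclear receptors fell by nearly the same amount. Nr4a1 was at 963, 935 and 1080 CPM in WT MHC I low and at 437, 498 and 509 CPM in MHC I high (log2 fold change -1.03, SE 0.052, limma adjusted p = 1.25e-16). Nr4a3, a related receptor also called NOR1, was at 157, 145 and 175 CPM and at 68.9, 80.7 and 81.0 CPM (log2 fold change -1.04, SE 0.075, limma adjusted p = 3.56e-11). Their 95% intervals were -1.14 to -0.92 and -1.19 to -0.88.

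The 3 EGR factors, which share a DNA-binding motif, did not move alike. Egr2 was at 196, 196 and 187 CPM in WT MHC I low and at 67.2, 86.0 and 67.9 CPM in MHC I high, a 2.73-fold fall (log2 fold change -1.45, SE 0.057, limma adjusted p = 1.24e-19). Egr1 went from 580, 517 and 520 CPM to 260, 320 and 265 CPM (log2 fold change -0.99, SE 0.069, limma adjusted p = 4.78e-11). Egr3 was at 29.6, 27.7 and 30.0 CPM in MHC I low and at 28.2, 31.4 and 29.0 CPM in MHC I high. The fractions overlapped for Egr3, with log2 fold changes of 0.00 in WT (95% interval -0.16 to 0.16), -0.10 in Hoil (-0.30 to 0.10) and 0.12 in Sharpin (-0.05 to 0.29). Id3, a target of the EGR factors, was at 213, 222 and 187 CPM and then at 126, 151 and 118 CPM (log2 fold change -0.72, SE 0.070, limma adjusted p = 6.31e-09).

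In the mutants the falls were of similar size, and no member had a change that differed from that in WT mice by the interaction test. The difference of changes was called for 0 of 9 genes in Hoil (0.398% of all genes) and for 0 of 9 in Sharpin (3.13%) by limma. edgeR and DESeq2 called 0 of 9 in both, and 1 gene in each had an unadjusted limma p under 0.05. Those genes were Id3 in Hoil (difference -0.23, 95% interval -0.46 to -0.01, limma adjusted p = 0.463) and Cd5 in Sharpin (difference -0.14, 95% interval -0.27 to 0.00, limma adjusted p = 0.263). By p they ranked only 1250 and 2131 of 12798 genes. The widest interval reached from -0.12 to 0.49, for Itm2a in Hoil. Of all genes, 400 were called in Sharpin with every mouse and 104 to 249 when WT mouse 2 or 3 or any Sharpin mouse was left out. In Hoil 51 were called with every mouse, 0 without WT mouse 3 or Hoil mouse 3, and 7 to 33 without WT mouse 1, Hoil mouse 1 or 2, or Sharpin mouse 2 or 3. Without Sharpin mouse 2, Egr3 was called higher in the Sharpin MHC I high fraction (log2 fold change 0.28, limma adjusted p = 0.031). The plot of changes by genotype sets the estimates side by side.

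**Figure D2:**
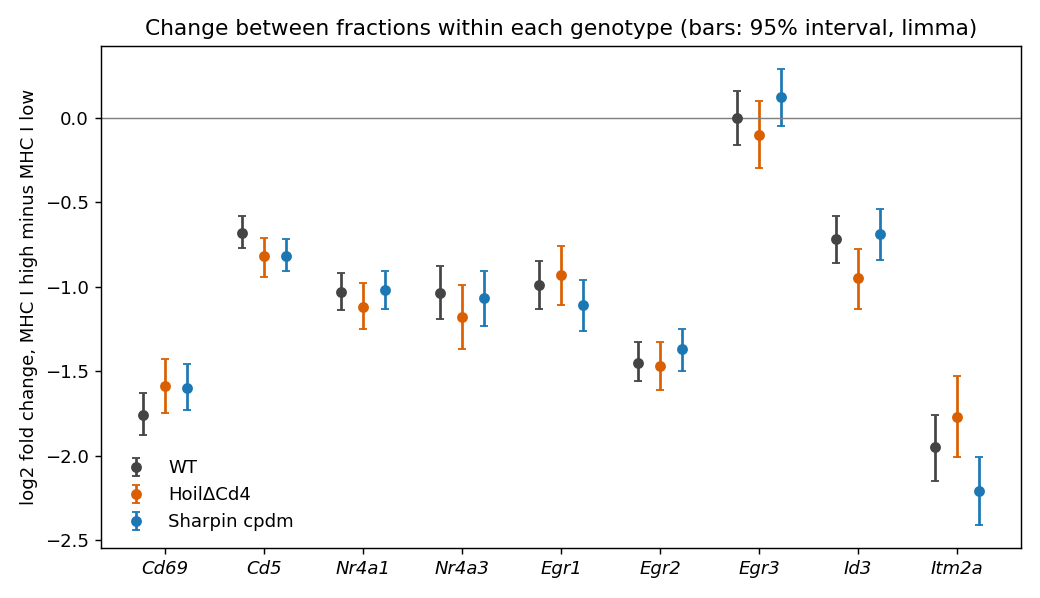
Change of each gene between the MHC I fractions (high minus low) as a log2 fold change (vertical axis) in WT (grey), HoilΔCd4 (orange) and Sharpin cpdm (blue) mice, 3 mice each, with 95% intervals from limma. For 8 genes the estimates lie between -2.21 and -0.68, and the 3 estimates of Egr3 lie between -0.10 and 0.12 with intervals that include 0.

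The next comparison asks whether the readouts differ between Sharpin and WT mice within a fraction. Loss of SHARPIN in the thymocytes cannot be told apart here from the other substrain and the mutant environment, and the sexes are unequally divided. In MHC I low cells 6 of 9 genes differed between Sharpin and WT mice, against 12.2% of all genes tested. Cd69, Nr4a1, Nr4a3 and Egr2 were lower in Sharpin, where 6.92% of all genes were called lower. Egr3 and Itm2a were higher, where 5.31% of all genes were called higher. In MHC I high cells 3 of 9 differed, against 8.62% of all genes. Nr4a1 and Nr4a3 were again lower (4.47% of all genes called lower) and Egr3 was again higher (4.15% called higher). The median log2 fold change of the 9 genes was -0.01 in the earlier and -0.02 in the later fraction, beside 0.01 and 0.00 for all genes, since members moved in both directions. The count of all genes called was 1565 in the earlier and 1103 in the later fraction. These counts were 818 to 998 and 238 to 566 when WT mouse 1 or 3 or Sharpin mouse 2 or 3 was left out. These comparisons and those of Hoil below use the same WT libraries.

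Nr4a3 showed the largest fall of the members. In MHC I low it was at 138, 111 and 107 CPM in the Sharpin mice against 157, 145 and 175 CPM in WT (log2 fold change -0.44, SE 0.091, limma adjusted p = 0.0027). The MHC I high values were 66.4, 54.3 and 50.7 CPM against 68.9, 80.7 and 81.0 CPM (log2 fold change -0.47, SE 0.082, limma adjusted p = 0.000693). The groups did not overlap in either fraction, and both calls held under all 20 alternative analyses. Nr4a1 moved the same way, at 867, 786 and 826 CPM in Sharpin MHC I low against 963, 935 and 1080 CPM (log2 fold change -0.28, SE 0.063, limma adjusted p = 0.00377). The MHC I high values were 432, 391 and 402 CPM against 437, 498 and 509 CPM (log2 fold change -0.27, SE 0.057, limma adjusted p = 0.00215). In each fraction the highest Sharpin value lay below the lowest WT value, in MHC I high by 432 against 437 CPM. Both Nr4a1 calls were lost without Sharpin mouse 2 (limma adjusted p = 0.0641 and 0.0689) and without WT mouse 3 (0.0576 and 0.169), and the MHC I high call was lost with edgeR (adjusted p = 0.0529).

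Cd69 was at 307, 321 and 315 CPM in Sharpin MHC I low, all below the 383, 430 and 399 CPM of WT (log2 fold change -0.34, SE 0.076, limma adjusted p = 0.00353). This call held under all 20 alternatives, with log2 fold changes from -0.39 to -0.24. Cd69 in MHC I high was at 101, 107 and 103 CPM against 117, 139 and 114 CPM, and the difference did not pass the threshold (log2 fold change -0.19, 95% interval -0.33 to -0.05, limma adjusted p = 0.092).

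Egr2 was at 157, 175 and 156 CPM in Sharpin MHC I low against 196, 196 and 187 CPM in WT (log2 fold change -0.22, SE 0.070, limma adjusted p = 0.0316). The groups did not overlap, but the call was lost in 6 of 20 alternatives, including the fit with Xist as a covariate (log2 fold change -0.17, limma adjusted p = 0.147) and those without Sharpin mouse 1 (0.0927), Sharpin mouse 3 (0.0803), WT mouse 1 (0.107) or WT mouse 3 (0.0513). Egr2 in MHC I high was at 65.7, 65.0 and 58.7 CPM against 67.2, 86.0 and 67.9 CPM (log2 fold change -0.15, 95% interval -0.28 to -0.02, limma adjusted p = 0.137). It passed the threshold there without WT mouse 1 (log2 fold change -0.27, limma adjusted p = 0.0443) and with mouse number as a fixed block (-0.21, 0.0402).

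Egr3 was higher in both Sharpin fractions, whereas Nr4a1 and Nr4a3 were lower. In MHC I high it was at 37.7, 40.2 and 37.8 CPM in Sharpin, all above the 28.2, 31.4 and 29.0 CPM of WT (log2 fold change 0.42, SE 0.087, limma adjusted p = 0.00203). Leaving out WT mouse 1 (adjusted p = 0.0624) or WT mouse 3 (0.113) ended that call, and the log2 fold change stayed between 0.36 and 0.50 over the alternatives. In MHC I low Egr3 was at 34.3, 41.6 and 28.4 CPM in Sharpin against 29.6, 27.7 and 30.0 CPM, and the groups overlapped (log2 fold change 0.29, SE 0.097, limma adjusted p = 0.0449). Sharpin mouse 2 was the highest, and without it the log2 fold change was 0.10 (limma adjusted p = 0.641). In all, 13 of 20 alternatives lost that call, edgeR and DESeq2 among them (adjusted p = 0.119 and 0.134).

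Itm2a was at 2590, 2410 and 2720 CPM in Sharpin MHC I low, all above the 2020, 2010 and 1840 CPM of WT (log2 fold change 0.38, SE 0.110, limma adjusted p = 0.0394). Itm2a is X-linked, and Sharpin mouse 2, the one with high Xist, had the lowest of the 3 Sharpin values. With Xist as a covariate the log2 fold change was 0.43 (limma adjusted p = 0.0555), and 10 of 20 alternatives lost the call, with log2 fold changes from 0.33 to 0.44. The call was lost without each Sharpin mouse (limma adjusted p = 0.0938, 0.0775 and 0.114 without mice 1, 2 and 3), without WT mouse 3 (0.159) and without Hoil mouse 1 (0.0673). Itm2a in MHC I high was at 589, 547 and 515 CPM against 432, 640 and 502 CPM, and the groups overlapped.

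Cd5, Egr1 and Id3 were not called in either fraction. Cd5 was at 1270, 1230 and 1280 CPM in Sharpin MHC I low against 1100, 1180 and 1190 CPM in WT (log2 fold change 0.12, 95% interval 0.01 to 0.24, limma adjusted p = 0.152). These groups did not overlap, and in MHC I high the 95% interval was -0.12 to 0.09. Egr1 was at 573, 604 and 574 CPM in Sharpin MHC I low, within which range one WT mouse fell (95% interval of the difference -0.05 to 0.29). Id3 was at 196, 204 and 218 CPM (95% interval -0.18 to 0.17).

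With Xist as a covariate the Sharpin differences of Cd69, Nr4a1, Nr4a3 and Egr3 in MHC I low were -0.24, -0.27, -0.44 and 0.41 on the log2 scale (limma adjusted p = 0.0377, 0.0188, 0.0116 and 0.00557). All WT mice had high Xist, so that fit draws the effect of Xist mainly from the Hoil and Sharpin mice. Other transcripts moved with the genotype in the same libraries. Of the 4 regulatory T-cell markers, Ikzf2 (Helios) was at a mean of 514 CPM in Sharpin MHC I low against 874 CPM in WT and 993 CPM in Hoil, while Foxp3 had means of 0.491 to 0.955 CPM in that fraction. The summed level of these 4 genes was 490 to 558 CPM in Sharpin, 804 to 1020 CPM in WT and 950 to 1080 CPM in Hoil, and nearly all of it was Ikzf2. Il2ra, whose protein CD25 was gated out in the sort, had means of 16.0 CPM in WT, 6.22 CPM in Hoil and 5.96 CPM in Sharpin MHC I low, and Ctla4 had means of 3.87, 3.78 and 4.68 CPM. The summed level of 9 DP markers was 1520 to 1560 CPM in Sharpin MHC I low and 1500 to 1530 CPM in WT, and that of 8 mature single-positive markers 1640 to 1680 CPM against 1430 to 1460 CPM. The part of these in the differences was not tested.

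In Hoil mice 0 of 9 genes differed from WT in MHC I low by limma, where 0.985% of all genes were called, and 0 of 9 in MHC I high, where 6.65% were called. At an unadjusted limma p under 0.05 there were 2 genes in MHC I low, Cd5 and Egr2, and 3 in MHC I high, Cd69, Egr2 and Egr3. edgeR and DESeq2 called 0 in MHC I low and 1, Egr2, in MHC I high. The median log2 fold change of the 9 genes was 0.02 and -0.02. Of all genes, 126 were called in MHC I low, 62 without WT mouse 1, 65 without Hoil mouse 3 and 222 without Hoil mouse 1. For MHC I high 851 were called, and 134 to 293 when WT mouse 1 or 3 or Hoil mouse 2 or 3 was left out. The DP markers summed to 1650 to 1820 CPM in Hoil MHC I low, above WT, and the mature single-positive markers to 1280 to 1310 CPM, below WT. The mature markers of MHC I high cells summed to 4170 to 4410 CPM in Hoil, 4620 to 4840 CPM in WT and 4860 to 4960 CPM in Sharpin. Their part in the comparisons of Hoil with WT and with Sharpin was not tested.

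Egr2 had the smallest p of the members in MHC I low. It was at 167, 166 and 176 CPM in Hoil MHC I low against 196, 196 and 187 CPM in WT (log2 fold change -0.18, 95% interval -0.33 to -0.02, limma adjusted p = 0.375). In MHC I high it was at 56.6, 64.6 and 61.3 CPM against 67.2, 86.0 and 67.9 CPM (log2 fold change -0.20, 95% interval -0.34 to -0.06, limma adjusted p = 0.075). The groups did not overlap in either fraction, and the MHC I high difference passed the threshold in 4 of 20 alternatives, including edgeR (-0.28, adjusted p = 0.049), DESeq2 (-0.28, 0.0351), mouse number as a fixed block (-0.26, 0.0181) and without WT mouse 1 (-0.32, 0.0449).

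Cd69 in Hoil MHC I high was at 120, 131 and 161 CPM against 117, 139 and 114 CPM in WT (log2 fold change 0.22, 95% interval 0.07 to 0.38, limma adjusted p = 0.0699). Hoil mouse 3 lay above all WT mice, and the other Hoil mice lay within the WT range. The difference passed the threshold in 4 of 20 alternatives, among them the fit with Xist as a covariate (0.31, limma adjusted p = 0.00642) and those without Hoil mouse 1 (0.29, 0.0143) or WT mouse 2 (0.26, 0.0261). Egr3 in Hoil MHC I high was at 21.8, 23.3 and 26.8 CPM, all below WT (log2 fold change -0.27, 95% interval -0.47 to -0.08, limma adjusted p = 0.0776). In MHC I low the Hoil values of Egr3, 25.5, 24.5 and 27.5 CPM, also lay below those of WT without passing the threshold (log2 fold change -0.17, 95% interval -0.39 to 0.05), and Cd69 overlapped with WT (95% interval -0.11 to 0.23).

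For the other members the Hoil values overlapped those of WT. Nr4a1 was at 1040, 1040 and 1150 CPM in Hoil MHC I low and at 489, 465 and 541 CPM in MHC I high (95% intervals of the difference from WT -0.03 to 0.26 and -0.10 to 0.16). Nr4a3 was at 162, 143 and 157 CPM and at 64.7, 68.9 and 70.3 CPM (-0.25 to 0.16 and -0.37 to 0.00). Cd5 was at 1160, 1300 and 1330 CPM and at 676, 732 and 721 CPM (0.00 to 0.25 and -0.13 to 0.09). The Cd5 interval in MHC I low therefore allows a difference of up to 0.25 on the log2 scale. Itm2a spread most between Hoil mice, at 1930, 1680 and 2330 CPM in MHC I low, with the mouse of high Xist the highest. Its interval was -0.23 to 0.28 in MHC I low and -0.02 to 0.44 in MHC I high. Egr1 was at 476, 532 and 565 CPM in MHC I low (-0.23 to 0.15) and Id3 at 201, 216 and 230 CPM (-0.12 to 0.26).

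**Figure D3:**
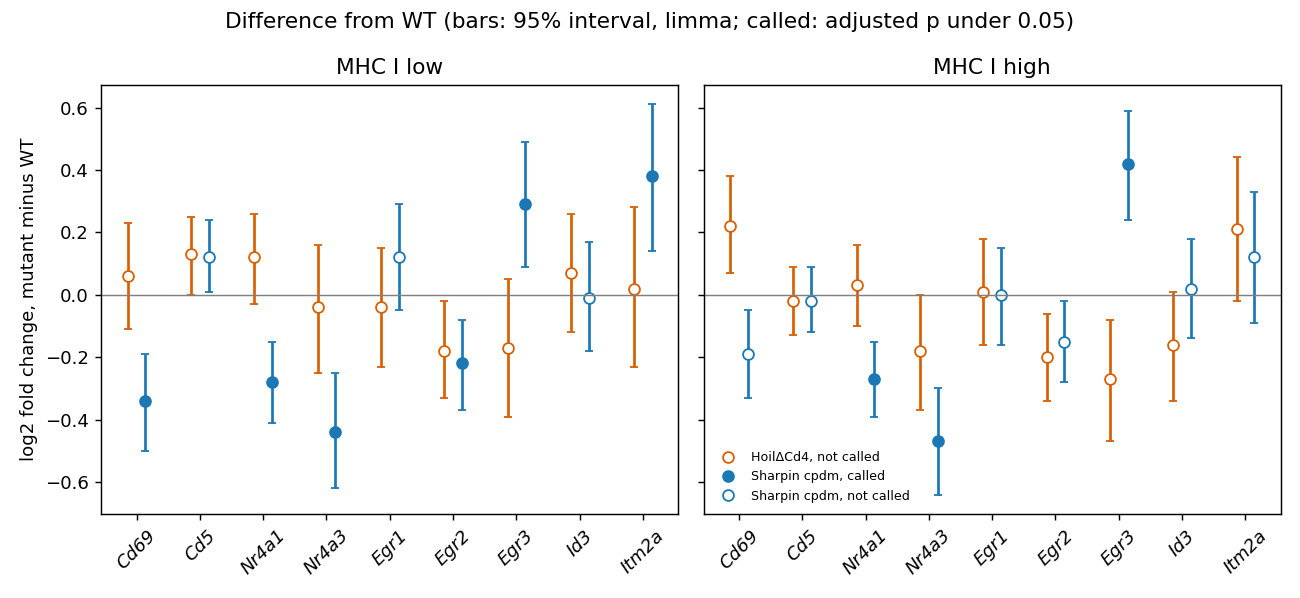
Difference of each gene between mutant and WT as a log2 fold change (vertical axis) in MHC I low (left) and MHC I high (right), with 95% intervals from limma, 3 mice per genotype. Filled points passed an adjusted p under 0.05. Nr4a1 and Nr4a3 are filled and below 0, and Egr3 filled and above 0, in both fractions of Sharpin cpdm (blue), and no HoilΔCd4 point (orange) is filled.

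The mutants were also set against each other, with the same mutant libraries as above, and the WT libraries entered only the shared estimates of the model. In MHC I low 4 of 9 genes differed between Hoil and Sharpin, against 9.48% of all genes (5.12% called higher in Hoil, 4.36% lower). In MHC I high 3 of 9 differed, against 6.73% (3.71% higher, 3.02% lower). The counts of all genes, 1213 and 861, were 707 to 798 in MHC I low without Hoil mouse 1 or 2 or Sharpin mouse 2 or 3, and 324 to 445 in MHC I high without Hoil mouse 2 or 3 or Sharpin mouse 2 or 3. Cd69 was at 402, 379 and 464 CPM in Hoil MHC I low, all above the 307, 321 and 315 CPM of Sharpin (log2 fold change 0.40, SE 0.085, limma adjusted p = 0.0033). In MHC I high it differed by 0.41 on the log2 scale (SE 0.076, limma adjusted p = 0.00109). Both Cd69 calls held under all 20 alternatives. Nr4a1 was higher in Hoil by 0.39 in MHC I low (SE 0.072, limma adjusted p = 0.000518) and in MHC I high by 0.30 (SE 0.063, limma adjusted p = 0.00294). The MHC I high call of Nr4a1 was lost without Hoil mouse 3 (adjusted p = 0.0632) or Sharpin mouse 2 (0.0618).

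Egr3 had the widest separation of the mutants. In MHC I high it was at 21.8, 23.3 and 26.8 CPM in Hoil and at 37.7, 40.2 and 37.8 CPM in Sharpin, 1.61-fold lower in Hoil (log2 fold change -0.69, SE 0.096, limma adjusted p = 1.64e-05), and the call held under all 20 alternatives. In MHC I low the log2 fold change was -0.46 (limma adjusted p = 0.00633), and -0.27 without Sharpin mouse 2 (0.182). Nr4a3 was higher in Hoil MHC I low by 0.39 (limma adjusted p = 0.0179). That call was lost without Hoil mouse 1 (0.108), Hoil mouse 3 (0.0889), Sharpin mouse 2 (0.099) or Sharpin mouse 3 (0.0748). The Nr4a3 difference in MHC I high was 0.28 (95% interval 0.09 to 0.47, limma adjusted p = 0.0625), called at 0.38 without Sharpin mouse 1 (0.00211). Itm2a in MHC I low (-0.35, 95% interval -0.62 to -0.08, limma adjusted p = 0.0965) passed the threshold without Hoil mouse 3 (-0.49, 0.03) or WT mouse 1 (-0.35, 0.041). For Cd5 the mutants differed by 0.01 in MHC I low (95% interval -0.12 to 0.13) and by 0.00 in MHC I high (-0.11 to 0.11).

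Across the 6 groups Cd69 and Nr4a1 had the same order of mean levels, with genotypes ranked Hoil, WT and Sharpin within each fraction. For Cd69 the means were 415, 404 and 314 CPM in MHC I low and 137, 123 and 103 CPM in MHC I high. For Nr4a1 they were 1080, 994 and 827 CPM and then 498, 482 and 408 CPM. In both genes the Hoil and WT mice overlapped within a fraction and the Sharpin mice stood apart below WT. Egr3 was instead ordered by genotype, with means of 38.6 and 34.7 CPM in Sharpin (MHC I high and low), 29.6 and 29.1 CPM in WT and 25.8 and 24.0 CPM in Hoil (MHC I low and high). In that order WT MHC I low and Hoil MHC I low were the only neighbours whose mice did not overlap.

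Within a fraction the members followed more than one pattern across libraries. Among the 36 pairs, Pearson correlations of log2 CPM over the 9 libraries of a fraction ranged from -0.69 to 0.86 in MHC I low and from -0.68 to 0.84 in MHC I high. In 17 of the 36 pairs the sign differed between the fractions. Nr4a1 and Nr4a3 correlated at 0.86 and 0.80, Cd69 and Nr4a1 at 0.84 and 0.79, and Cd69 and Nr4a3 at 0.73 and 0.53, the 3 pairs above 0.5 in both fractions. Egr3 ran against Nr4a1 (-0.69 and -0.68) and Cd69 (-0.60 and -0.59), the 2 pairs below -0.5 in both. Cd5 had correlations with Nr4a1 of 0.02 and 0.32. The libraries share genotype differences, sex and the fractions of the same mice, so these values are descriptions and carry no test.

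**Figure D4:**
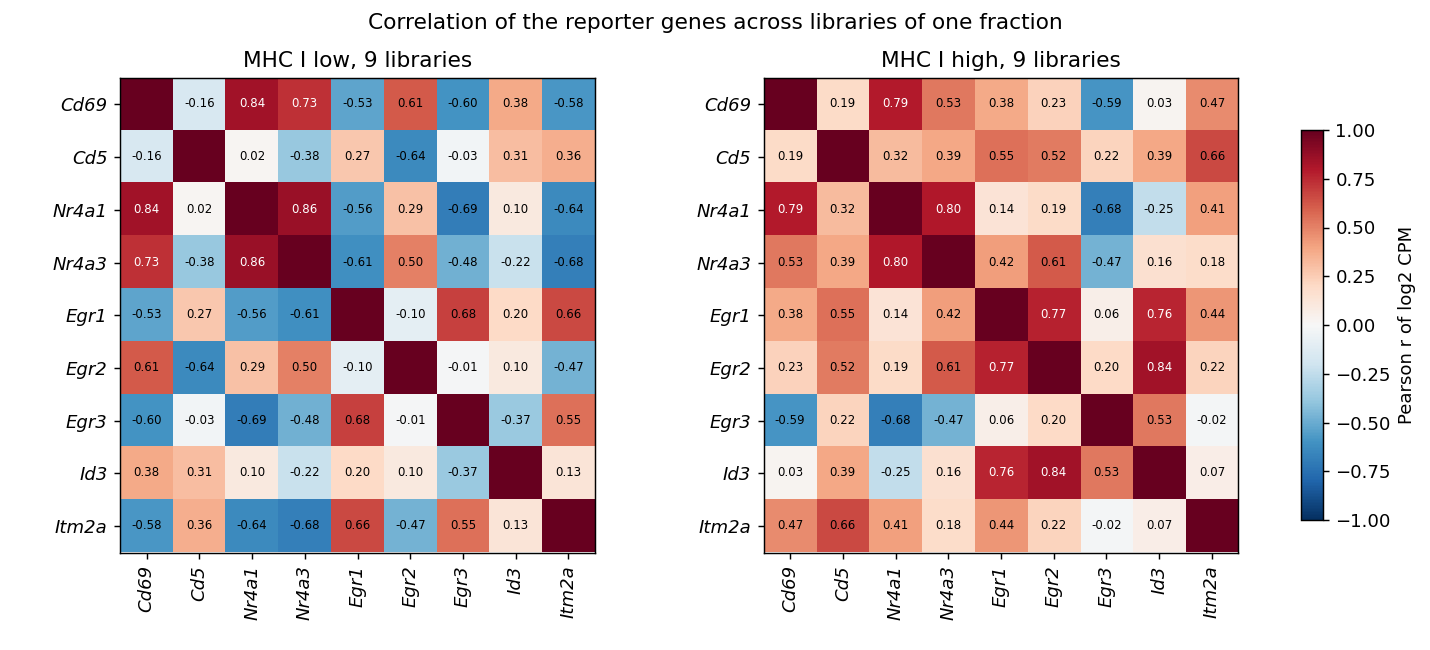
Pearson correlation of log2 CPM between members over the 9 libraries of the MHC I low (left) and MHC I high (right) fraction, from -1 (blue) to 1 (red). The block of Cd69, Nr4a1 and Nr4a3 is red in both fractions (0.53 to 0.86), Egr3 is blue against it in both, and Egr2 with Id3 is red in MHC I high only (0.84, against 0.10).

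The genes most like each member were ranked over all tested genes by the lower of the correlations in the 2 fractions, 9 libraries each. Nab2, which encodes a corepressor of the EGR factors, was the gene most like Nr4a1 (0.93 in MHC I low, 0.90 in MHC I high), followed by Utp14b and Nt5dc3. Cd6, a paralog of Cd5 on the T-cell surface, was among the 3 most like Cd5 (0.93 and 0.81) with Prkcsh and Tmem214. Il7r, the interleukin-7 receptor chain, was among the 3 most like Egr3 (0.83 and 0.97) with Ptpra and Wdr81. Fubp1, Stap1 and Ythdf2 led for Cd69, Sbk1, Trim2 and Tpm3 for Nr4a3, Tor4a, Ucp2 and Laptm5 for Egr1, and Hsd11b1, B3gnt2 and Pacc1 for Egr2. Pycard, Mrps12 and Cox4i1 led for Id3, and Rab5c, Ostc and Ppp2r1a for Itm2a. The lower correlation of these 27 genes was 0.74 or more. They were picked as the highest among all genes tested, and shared genotype differences enter the correlations, so these values are descriptions and carry no test.

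Of 18 ERK feedback genes and EGR corepressors, which turn signalling down again, 13 were lower and 3 higher in WT MHC I high, beside 26.8% of all genes called lower. Their median log2 fold change was -0.54. For this and the following lists, the share of all genes called in either direction was 54.4% between the WT fractions. It was 12.2% and 8.62% in Sharpin against WT (MHC I low and MHC I high), and 0.985% and 6.65% in Hoil against WT. Nab2 fell by 0.82 on the log2 scale (limma adjusted p = 6.24e-15), and the ERK pathway inhibitors Spry4 and Spry1 had log2 fold changes of -2.31 and -1.70. Rasa3, a GTPase-activating protein for Ras and Rap, rose by 2.56. In Sharpin mice Nab2 was lower than in WT in both fractions, at means of 395 ± 33.8 against 545 ± 16.3 CPM (SD, n = 3) in MHC I low and 227 ± 23.9 against 309 ± 17.1 CPM in MHC I high (log2 fold changes -0.48 and -0.46, limma adjusted p = 1.97e-06 and 7.19e-07). Dusp10, a phosphatase that acts mainly on JNK and p38, was higher in both (0.49 and 0.28, adjusted p = 7.58e-07 and 0.000685). Dusp4, a nuclear ERK phosphatase, was lower in MHC I high (-0.68, adjusted p = 2.74e-07). These calls of Nab2, Dusp10 and Dusp4 held under all 20 alternatives. In all, 1 of the 18 was higher and 2 lower in Sharpin MHC I low, and 1 higher and 5 lower in MHC I high. In Hoil 1 was lower in MHC I low (Dusp5, -0.35), and 2 were higher and 1 lower in MHC I high. Those in MHC I high were Spry4 (0.77), Spry2 (0.76) and Rasa3 (-0.24), and each Hoil call was lost in at least 7 of 20 alternatives.

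Upstream, 10 of 18 Ras and ERK activators were lower and 3 higher in WT MHC I high, beside 54.4% of all genes called in either direction. Rasgrp1, the activator of Ras downstream of the TCR, fell by 0.65 (limma adjusted p = 3.43e-14), and Sos1 rose by 0.51. In Sharpin MHC I low 3 were higher, Map2k1 (0.29), Map2k2 (0.21) and Mapk3 (0.27), and 3 lower, Elk4 (-0.45), Braf (-0.30) and Sos1 (-0.19). Elk4 is a ternary complex factor that acts with SRF, and its call held under all 20 alternatives, as did that of Map2k1. The call of Sos1 was lost in 9 of 20, that of Mapk3 in 4, that of Map2k2 in 2 and that of Braf in 1. In Sharpin MHC I high 1 was higher, Ksr1 (0.25), and 1 lower, Elk3 (-0.16), and each of these calls was lost in 12 of 20 alternatives.

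Of 20 other immediate-early genes tested, 6 were higher and 6 lower in WT MHC I high, beside 54.4% of all genes called in either direction. The median log2 fold change of the list was -0.11. Fosb, an AP-1 subunit, fell by 2.40 (limma adjusted p = 7.6e-16), and Jund, another AP-1 subunit, rose by 0.84. In Sharpin mice 4 were lower in MHC I low, and 3 were lower and 1 higher in MHC I high. Btg2, an antiproliferative gene, was lower in both fractions (-0.26 and -0.41, adjusted p = 0.00944 and 2.62e-05), Srf was lower in MHC I high (-0.28, 0.000832), and Myc was higher there (0.33, 0.00506). In Hoil Myc was lower in MHC I low (-0.43, adjusted p = 0.0136) and Fosl2 higher in MHC I high (0.37, 0.00724). The Hoil calls of Myc and Fosl2 were lost in 3 and 4 of 20 alternatives, the Sharpin call of Myc in 6, that of Btg2 in MHC I low in 2 and that of Srf in 1.

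Of 18 calcium and NFAT pathway genes, 7 were higher and 7 lower in WT MHC I high, beside 54.4% of all genes called in either direction. Tox, a calcineurin-dependent factor of positive selection, fell by 1.33 and Nfatc1 fell by 1.36, while Nfatc2 rose by 0.60. Nfatc1 was higher in Sharpin than in WT by 0.35 in both fractions (limma adjusted p = 0.00115 and 0.000527), calls that held under all 20 alternatives. In each Sharpin fraction 1 gene was higher and 1 lower, beside 12.2% (MHC I low) and 8.62% (MHC I high) of all genes called. Hoil had 1 lower gene in MHC I low, beside 0.985% of all genes called, and 2 lower genes in MHC I high, beside 6.65%. Rcan3 was lower in both Hoil fractions (-0.41 and -0.28, limma adjusted p = 0.0015 and 0.0103). The Rcan3 calls were lost in 1 and 6 of 20 alternatives.

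Among paralogs of the members, 3 of 9 tested were lower and 2 higher in WT MHC I high, beside 54.4% of all genes called in either direction. Id2, like Id3 an inhibitor of E proteins, fell by 1.63 (limma adjusted p = 4.15e-12), Nr4a2 fell by 0.83 and Cd6 fell by 0.23. In Sharpin MHC I low Itm2c was higher (0.26, adjusted p = 0.0264) and Clec2d lower (-0.38, 0.0101), and in Hoil MHC I high Clec2i was lower (-0.21, 0.0492). The Clec2i call was lost in 14 of 20 alternatives and the Itm2c call in 4. Of 8 E proteins and partners, 6 were lower in WT MHC I high, beside 26.8% of all genes called lower. Among the 6, Lmo2 fell by 1.60 (limma adjusted p = 3.52e-07) and Bcl11b, a T-lineage factor, fell by 0.39 (1.28e-07). The summed DP markers were 2140 to 2560 CPM in Hoil MHC I high and 2220 to 2470 CPM in Sharpin MHC I high, against 1940 to 2170 CPM in WT.

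Of 23 negative regulators of TCR signalling, 7 were higher and 10 lower in WT MHC I high, beside 54.4% of all genes called in either direction. Pdcd1 (PD-1) fell by 1.12 and the adaptor Sla fell by 1.01, while Ctla4 rose by 2.14 and Dgka by 0.75. In Hoil 3 were higher in MHC I low, and 3 were higher and 1 lower in MHC I high. Pdcd1 was higher in both (0.35 and 0.47, limma adjusted p = 0.0248 and 0.000111), as was Tigit (0.79 and 1.16, 0.0472 and 0.000123). In Sharpin MHC I low 2 were higher, Btla (0.27) and Csk (0.25), and 2 lower, Cbl (-0.44) and Lax1 (-0.22), and in MHC I high 2 were lower, Cblb (-0.24) and Ubash3b (-0.23). The calls of Btla, Csk and Cbl in Sharpin and of Pdcd1 and Tigit in Hoil MHC I high held under all 20 alternatives. In Hoil MHC I low the call of Tigit was lost in 8 and that of Pdcd1 in 4, and in Sharpin those of Ubash3b, Lax1 and Cblb were lost in 10, 9 and 8.

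Of 13 genes of clonal deletion and strong signals, 6 were higher and 5 lower in WT MHC I high, beside 54.4% of all genes called in either direction. Bcl2l11, which encodes the pro-apoptotic protein BIM, fell by 1.35 (limma adjusted p = 6.99e-20), Gadd45b fell by 1.39, and Cd83 rose by 3.32. Against WT, Hoil MHC I low cells had 5 lower genes and 1 higher gene, and Hoil MHC I high cells 6 lower and 1 higher. Sharpin MHC I low cells had 5 lower genes and Sharpin MHC I high cells 6, with 0 higher in either by limma. Between 6 and 8 of the 13 were not called in each comparison. The median log2 fold changes from WT were -0.37 and -0.40 in Hoil and -0.28 and -0.35 in Sharpin, beside medians of 0.00 to 0.01 over all genes. Bcl2l11 was lower in Sharpin MHC I low (-0.41, adjusted p = 4.1e-05). This list holds several genes chosen with earlier results of these libraries known and is not independent evidence of its direction.

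Heat shock genes were read as a sign of cell stress. The 12 listed genes, with Hsp90ab1 the most abundant (mean 1860 CPM in WT MHC I low), summed to 3180 to 4410 CPM in Hoil MHC I low, 2670 to 3080 CPM in WT and 2470 to 2810 CPM in Sharpin, and the Sharpin and WT mice overlapped. Of 11 tested, Hoil had 2 higher in the MHC I low fraction and 5 in the MHC I high fraction, and Sharpin had 3 and 4 lower, where 0.985%, 6.65%, 12.2% and 8.62% of all genes were called in either direction. Dnaja1, an HSP40 cochaperone, differed from WT by 0.43 and 0.35 in Hoil and by -0.38 and -0.29 in Sharpin (limma adjusted p = 0.00272, 0.00294, 0.000666 and 0.00511), and its call in Hoil MHC I high was lost in 6 of 20 alternatives. Between WT fractions 1 was higher and 3 lower, beside 54.4% of all genes called in either direction. Their part in the differences of the members was not tested.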

How the data were processed

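RNA of sorted thymocytes was sequenced as single-end reads. The authors aligned these to mm10 by subread and assigned them to the RefSeq genes built into featureCounts. The deposited values are raw counts, without normalization and without pooling of mice. The settings for strand and for multiply mapping reads are not given in the sources used here, so counts of near-identical genes such as Hspa1a and Hspa1b are uncertain. The counts of all 18 samples were identical in the table of the whole series. Of 27179 genes, 25275 matched RefSeq GRCm38.p6 by Entrez Gene ID, and 1904 with 0.655% of the counts did not.

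As in the study, Xist, chromosome Y genes, predicted genes and those lacking an official symbol (here, without a RefSeq match) were removed. Of the rest, 12798 reached 0.5 CPM in 3 or more samples and were tested. Following the study's methods, log2 CPM (TMM scaling, prior count 1) was fitted with limma 3.58.1 in R 4.3.3, with sample quality weights, mouse as a random block, trended and robust empirical Bayes and Benjamini-Hochberg adjustment over all genes. Both fractions came from the same mice, and the fractions of a mouse deviated together from their group means (r from 0.0702 to 0.256, fitted block correlation 0.224). CPM values are on the TMM-scaled library size. Intervals are 95% intervals of limma. edgeR 4.0.16 (quasi-likelihood) and DESeq2 1.42.0 were among 20 alternatives. Total counts of 10577966 to 16266128 per sample put 279 or more reads on every member in every sample. The fitting procedure was tested on simulated data. The labels name 3 mice per genotype as replicates.

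The 9 members and the gene lists were chosen with earlier results of these data known. Named genes were the members, the 3 genes most like each, and in each list the called genes with the smallest p-values, at most 3 per direction and comparison. Promoter sequences are from RefSeq, and 250 bases upstream were searched. Results of a few listed genes are not reported here.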

Additional observations from a re-analysis of the deposited data

Results flagged for a closer look

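For the 9 genes of the pathway lists given here the difference between the MHC I fractions was not the same in Sharpin as in WT mice by the interaction test (limma adjusted p under 0.05), and for no member did it differ by that test. These 9 were taken from all listed genes because they were called. Of all genes tested, 3.13% were called in this comparison, 400 with every mouse and 104 without WT mouse 3. The difference of the changes (Sharpin minus WT, log2 scale) was -0.61 for Dusp4 (limma adjusted p = 0.000739), -0.36 for Map2k2 (0.00303) and 0.40 for Nfat5 (0.00335), and these 3 held under all 20 alternatives. It was 0.41 for Cbl (0.0284) and 0.27 for Bcl2l11 (0.0418). It was -0.30 for Elk3 (0.0106), -0.39 for Ubash3b (0.0169), -0.38 for Itm2c (0.019) and -0.32 for Pdcd1 (0.0362). The last 6 calls were each lost in 4 to 11 of the alternatives.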

How the results depend on the processing

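Of 1980 values of the members under the alternatives, 1919 stayed on the same side of the threshold, 43 lost a call, 18 gained one and 0 reversed a call. Of 40 calls, 31 held under all 20 alternatives. The number of members called in Hoil against WT MHC I high, 0, became 1 with edgeR, DESeq2, at least 10 counts in every sample and Xist as a covariate. Without a mouse in turn, the number called ranged from 0 to 1 in that comparison, from 2 to 6 in Sharpin against WT MHC I low and from 1 to 4 in MHC I high, from 2 to 5 between Hoil and Sharpin in MHC I low and 2 to 4 in MHC I high, and from 8 to 9 between the Sharpin fractions. In Sharpin against WT MHC I low it was 3 without Sharpin mouse 1 or 2 and 2 without WT mouse 3, in MHC I high it was 1 without WT mouse 3, and between Hoil and Sharpin in MHC I low it was 2 without Sharpin mouse 2. Of 269 results of list genes, 180 held under every alternative, 89 were lost in at least 1 and 0 reversed.

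Mouse was a random block. With mouse number as a fixed replicate block, 1 member was called in Hoil against WT MHC I high (Egr2, -0.26). The labels do not say that mice of different genotypes with the same number were paired. With each mouse as a fixed block, 1 member was called in the difference of Hoil and WT changes (Id3, -0.33, limma adjusted p = 0.0423). With no replicate block, Egr3 in Sharpin against WT MHC I low lost its call (0.29, limma adjusted p = 0.0508). With 3 mice per group, the smallest called genotype difference of a member was -0.22 (Egr2) and the largest not called was -0.35 (Itm2a, Hoil against Sharpin) on the log2 scale.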
